A study of Mus musculus with 9 samples.

Results

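The genes described here encode the IL-17 and IL-23 cytokines and the receptors through which they are sensed in skin. They are 10 genes chosen by name: the IL-17 family ligands Il17a, Il17f and Il17c, the IL-23 subunits Il23a and Il12b, the receptor chains Il23r, Il17ra, Il17rc and Il17re, and the chemokine receptor Ccr6. All 10 were found, each on 1 probe set carrying a single gene symbol, among the 19938 genes measured. Whole ear skin had been profiled on 9 Affymetrix Mouse Gene 1.0 ST arrays, from female C57BL/6 mice 7 to 9 weeks old, with 3 arrays in each of 3 groups. In the anisomycin group the drug, an inhibitor of protein synthesis that also activates stress kinases, was put on the ear at 2 mg/ml in ethanol, 10 µl to each side of the ear, on 5 days. The imiquimod group received 10 mg of a 5% cream of imiquimod, a ligand of Toll-like receptor 7 widely used to induce a psoriasis-like dermatitis, on 5 days. The remaining group is labelled as vehicle, and the labels used here do not say whether that was ethanol or cream base, nor for how long it was given, so effects of ethanol or cream cannot be told apart from those of the drugs. No group carries a genetic change, per the labels. The whole ear holds epidermis, dermis, muscle and cartilage, and in such bulk RNA fewer cells of a type and less RNA per cell cannot be told apart.

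IL-23 is made by dendritic cells and macrophages as a pair of subunits, the p19 chain from Il23a and the p40 chain from Il12b, which IL-12 also uses. It acts on lymphocytes carrying the receptor chain Il23r, many of which also carry Ccr6 and reach the skin along the chemokine Ccl20. These lymphocytes release IL-17A and IL-17F, which bind Il17ra paired with Il17rc on keratinocytes, whereas IL-17C is made by epithelial cells themselves and binds Il17ra paired with Il17re. In mouse skin the axis is known for its part in imiquimod dermatitis.

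With imiquimod 7 of the 10 genes rose and none fell, and with anisomycin 2 rose and none fell. At limma's unadjusted p under 0.05, 0 of the 10 were lower with either treatment. Il23a and Il17ra rose with both treatments and more with anisomycin, while Il17f, Il17c, Il12b, Il17rc and Il17re rose with imiquimod and were higher there than with anisomycin in the direct test. The IL-17A gene Il17a, Il23r and Ccr6 were not called in any of the 3 comparisons. Across all genes tested, 45.6% were called at an adjusted p under 0.05 for anisomycin against vehicle, 42.7% for imiquimod against vehicle and 20.4% for anisomycin against imiquimod. Genes called higher than vehicle made up 22.3% with anisomycin and 20.4% with imiquimod, and genes called lower 23.3% and 22.4%. In the direct comparison 5 of the 10 were higher with imiquimod and 2 higher with anisomycin, where 9.59% and 10.8% of all genes were. The arrays of the groups compared did not overlap for 51.3%, 51.8% and 39.3% of all genes in the 3 comparisons, and for 3, 7 and 7 of the 10. The members' shares stood below that background for anisomycin and above it for imiquimod. The share of 7 in 10 for the direct comparison was also above its background. The median log2 difference of the 10 genes was 0.04 for anisomycin and 0.52 for imiquimod, where the median of all genes was -0.01 and -0.03. Both treatments were set against the same vehicle arrays.

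**Figure D1:**
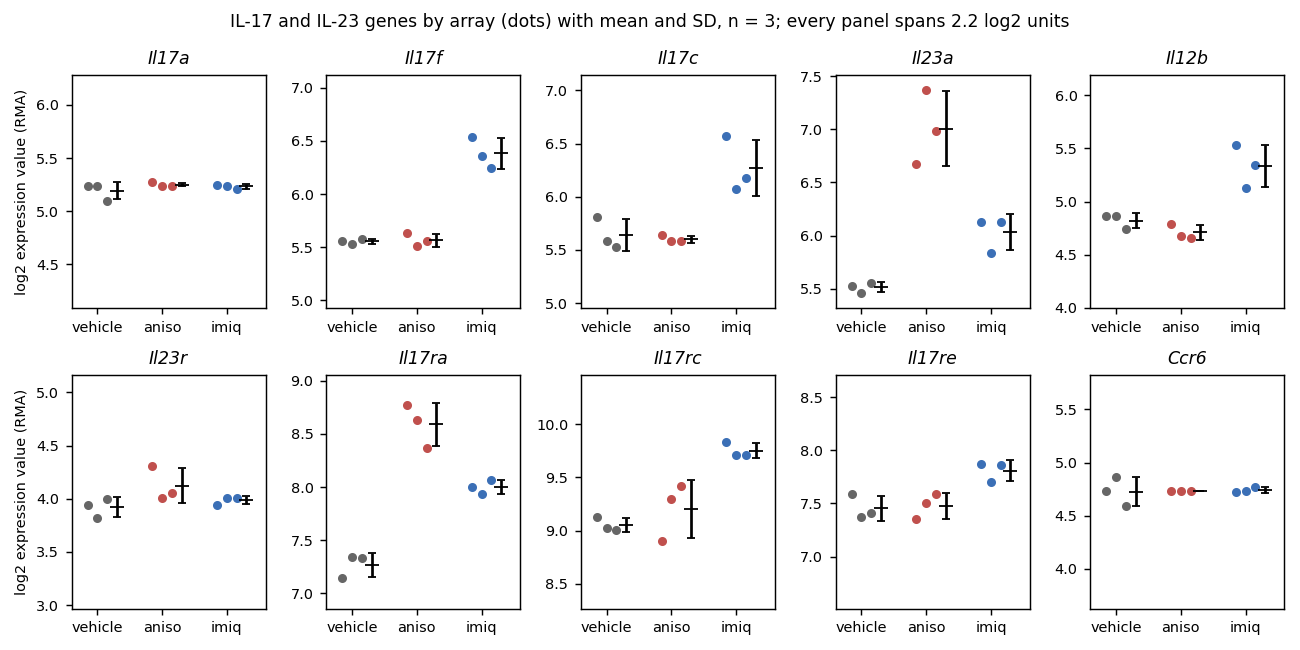
Log2 expression values (vertical axis, RMA) of the 10 genes in vehicle, anisomycin (aniso) and imiquimod (imiq) ears, 1 dot per array, with the mean and SD of 3 arrays at the right of each group. Every panel covers the same number of log2 units but starts at its own level. Il23a and Il17ra stand highest in anisomycin ears, Il17f, Il17c and Il12b are raised in imiquimod ears alone, and Il17a and Ccr6 lie level.

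Il17a and Il17f are direct neighbours in the genome, with no other RefSeq gene between them, yet their values parted under imiquimod. Their sequences just upstream of the transcription start are shown for that reason, with those of Il17c and of Il12b, the gene whose profile over the 9 arrays was closest to that of Il17c. Il17a stood at percentile 29 of all genes, and whether its signal rose above background was not tested. Its level values therefore do not show that the transcript was unchanged. Each run is the 250 bases before a RefSeq start on the gene's own strand, in build GRCm38.p6, and capitals mark matches to the motifs listed after them. Il17a lies at chr1:20730655-20730904 (plus strand), Il17f at chr1:20784271-20784520 (minus strand), Il17c at chr8:122421770-122422019 (plus strand) and Il12b at chr11:44399813-44400062 (plus strand). The RefSeq span of Il17f runs past this window, so the gene has a further start upstream of it.
Il17a: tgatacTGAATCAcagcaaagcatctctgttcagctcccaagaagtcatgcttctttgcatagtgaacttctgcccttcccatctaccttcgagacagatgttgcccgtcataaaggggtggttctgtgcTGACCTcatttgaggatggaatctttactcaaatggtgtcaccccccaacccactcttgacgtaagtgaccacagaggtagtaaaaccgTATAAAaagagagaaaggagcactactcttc
Il17f: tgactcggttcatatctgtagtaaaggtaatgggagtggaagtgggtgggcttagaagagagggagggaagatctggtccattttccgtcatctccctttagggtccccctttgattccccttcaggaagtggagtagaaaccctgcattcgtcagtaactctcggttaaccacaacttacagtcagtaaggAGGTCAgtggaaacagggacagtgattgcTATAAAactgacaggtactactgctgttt
Il17c: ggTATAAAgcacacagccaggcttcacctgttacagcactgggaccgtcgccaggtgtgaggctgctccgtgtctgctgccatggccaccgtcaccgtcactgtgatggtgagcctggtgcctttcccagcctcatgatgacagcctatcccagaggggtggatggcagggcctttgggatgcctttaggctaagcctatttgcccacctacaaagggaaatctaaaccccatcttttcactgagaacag
Il12b: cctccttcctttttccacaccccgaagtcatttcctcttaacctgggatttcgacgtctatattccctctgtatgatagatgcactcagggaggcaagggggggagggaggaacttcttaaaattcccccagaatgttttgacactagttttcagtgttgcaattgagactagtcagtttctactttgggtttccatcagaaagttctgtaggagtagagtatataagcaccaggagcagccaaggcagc
Both strands were searched for AGGTCA, the half-site letters that nuclear receptors bind, for TATAAA, for the AP-1 letters TGANTCA, for the C/EBP letters TTGCNNAA and for the NF-kB letters GGGANTTTC. The half-site letters stood 58 bases before the Il17f start and, on the opposite strand, 120 bases before the Il17a start. TATAAA began 29 and 31 bases before those starts. Il17a also held an AP-1 match, 244 bases upstream. In Il17c the match in capitals was TATAAA at 248 bases upstream, and the Il12b window held none of the 5 motifs. Of the 32851 windows of this length in the table, 14% held the half-site letters, 12.4% TATAAA, 6.75% the AP-1 letters, 9.56% the C/EBP letters and 0.941% the NF-kB letters. Windows were found for 8 of the 10 genes, 9 in all because Ccr6 has more than 1, and Il23a and Il17ra had none in the table. Half-site letters occurred in 4 of the 8 genes, the others being Il23r and Ccr6, and NF-kB letters in 0. These are matches of letters only, and a window without them says nothing of a factor.

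Among the IL-17 ligands, Il17a stayed level. Its values were 5.24, 5.24 and 5.10 in vehicle ears, 5.27, 5.24 and 5.24 in anisomycin ears and 5.25, 5.24 and 5.21 in imiquimod ears. The 3 groups overlap, and all 9 arrays lie in a narrow band. The log2 difference from vehicle was 0.05 with anisomycin (SE 0.05, 95% interval -0.07 to 0.17, limma's adjusted p = 0.472) and 0.04 with imiquimod (SE 0.05, interval -0.08 to 0.15, adjusted p = 0.642). These intervals bound the change of the probe set's value. The mean of Il17a stood at percentile 29.0 of all genes, and whether its signal rose above background was not tested.

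Il17f, which encodes a cytokine that pairs with itself or with IL-17A, set the imiquimod ears apart from the other groups. It read 5.56, 5.53 and 5.58 in vehicle ears, 5.63, 5.51 and 5.56 in anisomycin ears, and 6.54, 6.36 and 6.25 in imiquimod ears. Every imiquimod array lay above every other array, while anisomycin and vehicle overlapped. The gene rose with imiquimod by 0.83 on the log2 scale, or 1.77-fold (SE 0.07, n = 3, adjusted p = 2.32e-05). With anisomycin the difference was 0.01 (SE 0.07, interval -0.15 to 0.18, adjusted p = 0.912), and the treatments differed from each other by -0.81 (anisomycin minus imiquimod, SE 0.07, adjusted p = 0.000196).

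Il17c, like Il17f, was highest in imiquimod ears, with more spread. Vehicle ears read 5.81, 5.58 and 5.53, anisomycin ears 5.64, 5.58 and 5.58, and imiquimod ears 6.57, 6.07 and 6.18. The imiquimod arrays again lay above all others, the first of them well above its companions. The rise with imiquimod was 0.63 (SE 0.12, 1.55-fold, adjusted p = 0.00228), against -0.04 with anisomycin (SE 0.12, adjusted p = 0.826), and the treatments differed by -0.67 (SE 0.12, adjusted p = 0.0053).

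The 2 subunits of IL-23 were both called higher with imiquimod and parted with anisomycin, where Il23a alone was called. Il23a, the subunit particular to IL-23, read 5.53, 5.46 and 5.55 in vehicle ears, 6.67, 7.37 and 6.98 in anisomycin ears and 6.13, 5.84 and 6.13 in imiquimod ears. The groups formed steps that did not overlap, vehicle lowest and anisomycin highest, and the anisomycin arrays were the most spread (SD 0.35). Il23a rose by 1.49 with anisomycin (SE 0.16, 2.82-fold, adjusted p = 4.38e-05) and by 0.52 with imiquimod (SE 0.16, 1.44-fold, adjusted p = 0.0227). The treatments differed by 0.97 (SE 0.16, adjusted p = 0.0031). The smaller rise with imiquimod was near the threshold. Its call ended when any 1 of the vehicle arrays, imiquimod array 1 or imiquimod array 3 was left out, with an adjusted p of up to 0.0778, while its size stayed between 0.47 and 0.62.

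Il12b, the subunit shared with IL-12, was called with imiquimod only. Vehicle ears read 4.86, 4.86 and 4.74, anisomycin ears 4.79, 4.68 and 4.66, and imiquimod ears 5.53, 5.13 and 5.34. Only the imiquimod arrays stood apart, above the rest. Il12b rose with imiquimod by 0.52 (SE 0.09, 1.43-fold, adjusted p = 0.00166), was -0.11 from vehicle with anisomycin (SE 0.09, interval -0.32 to 0.10, adjusted p = 0.386) and differed between the treatments by -0.63 (SE 0.09, adjusted p = 0.00236). The mean of Il12b over the 9 arrays stood at percentile 24.7 of all genes, so its rise, from a dim level, may be understated. Il12a, whose product joins p40 to form IL-12, was not called with either treatment, at 0.12 for both (SE 0.10, adjusted p = 0.339 with anisomycin and 0.372 with imiquimod).

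**Figure D2:**
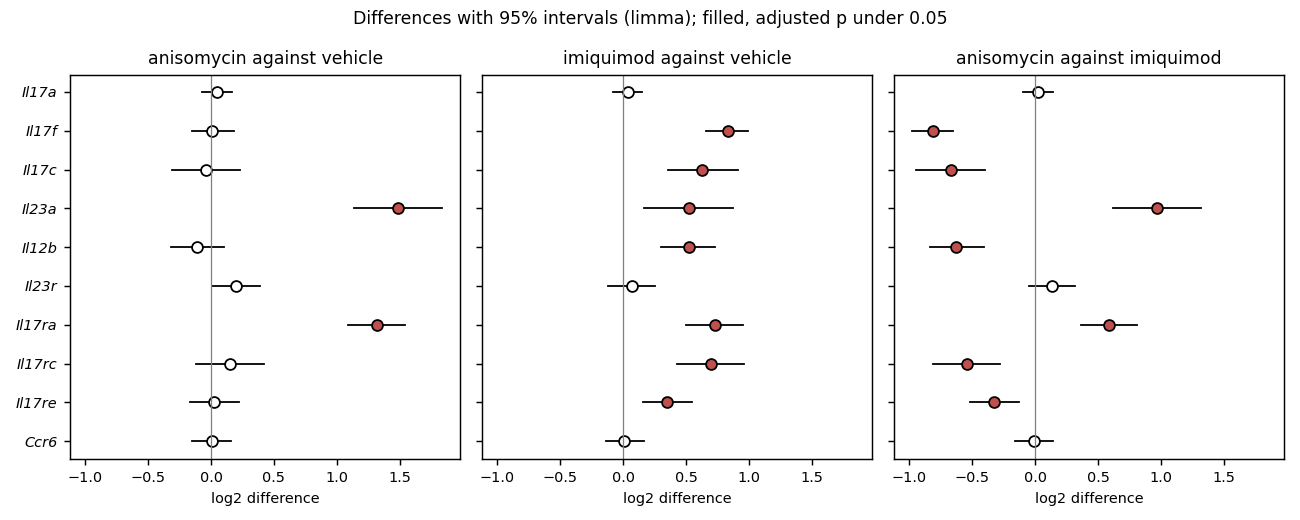
Log2 differences (horizontal axes) of the 10 genes in the 3 comparisons, with 95% intervals from limma and 3 arrays in each group. Filled points passed an adjusted p under 0.05: 2 in the first panel, 7 in the second and 7 in the third, where 5 lie to the left (higher with imiquimod) and 2 to the right (higher with anisomycin).

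Of the IL-17 receptor chains, Il17ra was called with both treatments, and Il17rc and Il17re with imiquimod only. Il17ra, the chain shared by the receptors of IL-17A, IL-17F and IL-17C, read 7.14, 7.34 and 7.33 in vehicle ears, 8.77, 8.63 and 8.37 in anisomycin ears and 8.0, 7.93 and 8.07 in imiquimod ears. The 3 groups did not overlap. Il17ra rose by 1.32 with anisomycin (SE 0.10, 2.49-fold, adjusted p = 6.57e-06) and by 0.73 with imiquimod (SE 0.10, 1.66-fold, adjusted p = 0.000298), a difference between treatments of 0.59 (SE 0.10, adjusted p = 0.00398).

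Il17rc, the partner chain for IL-17A and IL-17F, read 9.13, 9.02 and 9.01 in vehicle ears, 8.90, 9.30 and 9.42 in anisomycin ears and 9.83, 9.71 and 9.71 in imiquimod ears. The anisomycin arrays spread on both sides of vehicle, array 1 below it and the other two above, and all imiquimod arrays lay higher still. The gene rose with imiquimod by 0.70 (SE 0.12, 1.62-fold, adjusted p = 0.00111). With anisomycin the difference was 0.15 (SE 0.12, adjusted p = 0.344), and without anisomycin array 1 it became 0.31 and passed the threshold (adjusted p = 0.00793). The treatments differed by -0.54 (SE 0.12, adjusted p = 0.0122), a call that ended without imiquimod array 1 (-0.50, adjusted p = 0.051).

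Il17re, the partner chain for IL-17C, read 7.59, 7.37 and 7.41 in vehicle ears, 7.35, 7.50 and 7.59 in anisomycin ears and 7.87, 7.70 and 7.86 in imiquimod ears. Anisomycin and vehicle overlapped and imiquimod lay above both. Its rise with imiquimod was the smallest called among the 10 genes, 0.35 (SE 0.09, 1.28-fold, adjusted p = 0.00843), against 0.02 with anisomycin (SE 0.09, adjusted p = 0.852). The difference between treatments was -0.33 (SE 0.09, adjusted p = 0.0261), and its call ended without anisomycin array 1 or 2 or imiquimod array 1 or 3, with an adjusted p of up to 0.0924. In the RefSeq table Il17re and Il17rc are neighbouring genes with 1 non-coding RNA gene between them.

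The genes that mark the responding lymphocytes showed little. Il23r read 3.94, 3.82 and 4.0 in vehicle ears, 4.31, 4.01 and 4.05 in anisomycin ears and 3.94, 4.01 and 4.01 in imiquimod ears. The anisomycin arrays lay just above vehicle, the first of them clear of the others, and the difference of 0.20 did not pass the threshold (SE 0.08, adjusted p = 0.0757). With arrays centred on their medians it was 0.28 and passed (adjusted p = 0.0225). With imiquimod it was 0.07 (SE 0.08, adjusted p = 0.574). The mean of Il23r stood at percentile 10.4 of all genes, the lowest of the 10, so little can be read from its level.

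Ccr6 read 4.73, 4.86 and 4.59 in vehicle ears, 4.73 in each anisomycin ear and 4.72, 4.73 and 4.77 in imiquimod ears. The treated arrays lay inside the range of vehicle, with differences of 0.01 for both treatments (SE 0.07, interval -0.15 to 0.16 with anisomycin and -0.14 to 0.17 with imiquimod). The mean of Ccr6 stood at percentile 21.3 of all genes, and whether its signal rose above background was not tested. Its ligand gene Ccl20 read 6.77, 6.38 and 6.94 in vehicle ears, 7.01, 7.59 and 7.69 in anisomycin ears and 9.49, 8.68 and 9.80 in imiquimod ears. All imiquimod arrays exceeded all anisomycin arrays, which exceeded vehicle by little. Ccl20 rose with imiquimod by 2.63 (SE 0.29, adjusted p = 7.68e-05). The difference of 0.73 with anisomycin missed the threshold (SE 0.29, adjusted p = 0.0639) and passed it under several alternatives, among them the fit to the anisomycin and vehicle arrays alone (adjusted p = 0.0309). Ccl20 differed between the treatments by -1.90 (SE 0.29, adjusted p = 0.00245).

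Markers of the cells that make or receive these cytokines were read in the same arrays, and their counts stand beside the 45.6% and 42.7% of all genes called with anisomycin and imiquimod. Of 8 keratinocyte markers 4 were higher and 1 lower with anisomycin, and 5 were higher and none lower with imiquimod (0 lower at limma's unadjusted p under 0.05). Krt14, a keratin of basal keratinocytes, was at 12.16 ± 0.14 (SD, n = 3) in vehicle ears, 12.96 ± 0.03 with anisomycin and 12.83 ± 0.02 with imiquimod. Dsg3, a desmosomal cadherin, rose by 2.25 and 1.76 and Krt1, a keratin of differentiating keratinocytes, by 1.35 and 2.34. Krt10, which pairs with Krt1, fell with anisomycin (-0.69) and was not called with imiquimod (-0.06). Trp63 and Dsc3 were called with neither treatment. Of 13 T cell markers 11 were measured. With anisomycin 2 were called higher and 3 lower, and with imiquimod 1 higher and 3 lower. The 5 and 4 of 11 called are near the share of all genes with anisomycin and below it with imiquimod, and the list's medians of 0.00 and -0.09 lie near those of all genes. Their summed log2 level ranged from 67.0 to 68.9 in vehicle ears, 66.3 to 67.1 with anisomycin and 65.9 to 66.9 with imiquimod. The largest change, named here after its value was seen, was in Cd3g, a chain of the T cell receptor complex, at -1.26 with anisomycin (SE 0.27, adjusted p = 0.00365) and -1.07 with imiquimod (SE 0.27, adjusted p = 0.00975). The difference in summed level between vehicle and treated ears rests largely on that gene. Cd3e changed by -0.54 and -0.41 and Cd247 by -0.19 and -0.29, Cd5 rose by 0.25 and 0.27, and Cd3d (-0.02 and 0.01) and Thy1 (0.00 and -0.01) were not called. The part of T cell numbers in the rise of Il17f was not tested.

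Of 9 dendritic and Langerhans cell markers, 3 were higher and 2 lower with anisomycin, and 1 was higher and 4 lower with imiquimod, so that 5 of 9 were called with each. The list's medians were 0.00 and -0.12. The summed log2 level was 55.7 to 57.4 in vehicle ears, 57.3 to 58.0 with anisomycin and 54.1 to 55.5 with imiquimod. Itgax, an integrin of dendritic cells and other myeloid cells, and Ccr7, the receptor with which dendritic cells leave the skin, were picked after their values were seen. Itgax rose with anisomycin by 1.45 (SE 0.20, adjusted p = 0.000302) and was at 0.31 with imiquimod (adjusted p = 0.268). Ccr7 rose by 1.87 with anisomycin (SE 0.21, adjusted p = 7.02e-05) and by 0.84 with imiquimod (SE 0.21, adjusted p = 0.00957). Other members fell. H2-Ab1, a class II antigen-presenting chain, changed by -1.0 with anisomycin and -1.03 with imiquimod, and Cd207, the langerin of Langerhans cells, by -0.83 and -0.44. With imiquimod Cd209a, a lectin of dermal dendritic cells, changed by -1.22 and Flt3, a growth factor receptor of dendritic cells, by -0.29, and neither was called with anisomycin (-0.46 and 0.06). Of 7 measured monocyte and macrophage markers 6 rose with each treatment, and their summed log2 level went from 50.5 to 51.3 in vehicle ears to 62.3 to 63.5 with anisomycin and 61.5 to 62.0 with imiquimod. The largest rises were in Cd14 (3.43 with anisomycin and 2.46 with imiquimod) and Itgam (2.92 and 2.98). Csf1r, the remaining marker, was called with neither treatment (-0.01 and 0.11). Neutrophil markers rose in 6 of 8 cases with anisomycin and 7 of 8 with imiquimod, from a summed log2 level of 38.7 to 39.2 in vehicle ears to 59.5 to 62.3 and 61.8 to 63.0. All 5 skeletal muscle markers fell with both treatments, as did 4 of 5 fibroblast markers. The fifth, Pdgfra, a growth factor receptor, was higher with anisomycin (0.68) and not called with imiquimod (-0.14). Of 5 endothelial markers 1 was higher and 1 lower with anisomycin, and none was higher and 2 lower with imiquimod (0 higher at limma's unadjusted p under 0.05). The cadherin Cdh5 rose by 0.88 with anisomycin and was at -0.14 with imiquimod, and the receptor Tek changed by -0.69 and -0.99. Mast cell markers fell in 3 of 5 cases with anisomycin and 5 of 5 with imiquimod. The part of these shifts in the changes of Il23a, Il17ra and the other genes was not tested.

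**Figure D3:**
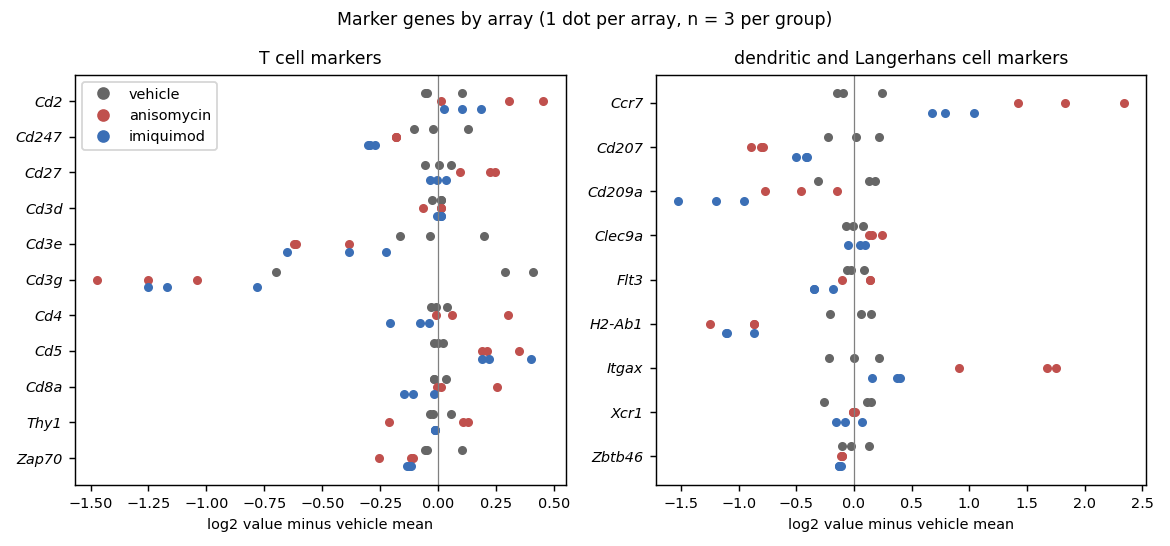
Marker genes of T cells (left) and of dendritic and Langerhans cells (right), as log2 values minus the mean of the 3 vehicle arrays (horizontal axes), 1 dot per array. Cd3g and Cd3e lie left of vehicle in treated ears, and Ccr7 and Itgax lie farthest right in anisomycin ears.

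The other IL-17 family genes that changed were lower in treated ears. Of 5 further ligand and receptor genes 3 fell with each treatment and none rose, though at limma's unadjusted p under 0.05 0 were higher with anisomycin and 2 with imiquimod. Across all genes 45.6% and 42.7% were called, with 23.3% and 22.4% called lower. Il17rb, a receptor chain for IL-25, fell from 7.17, 7.22 and 7.11 in vehicle ears to 6.05, 6.12 and 6.23 with anisomycin and 6.14, 6.35 and 6.36 with imiquimod. Those changes were -1.03 (SE 0.07, adjusted p = 4.56e-06) and -0.88 (SE 0.07, adjusted p = 1.62e-05), with no overlap of treated and vehicle arrays. The ligand gene Il17d changed by -0.59 with anisomycin (SE 0.11, adjusted p = 0.00148) and -0.56 with imiquimod (SE 0.11, adjusted p = 0.0023). The receptor-like gene Il17rd, whose product restrains growth factor signalling, changed by -0.45 (SE 0.07, adjusted p = 0.000432) and -0.61 (SE 0.07, adjusted p = 8.21e-05). With the mean of its probe sets these became -0.20 (adjusted p = 0.0443) and -0.36 (adjusted p = 0.00242). Il17b and Il25 were not called with either treatment, at 0.09 and 0.13 with anisomycin and 0.12 and 0.20 with imiquimod, though both passed as higher with either treatment when arrays were centred on their medians.

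Downstream of the IL-17 receptors, 17 of 19 listed signalling genes were measured. With anisomycin 13 rose and 1 fell, and with imiquimod 11 rose and 1 fell. Across all genes 45.6% and 42.7% were called, with 22.3% and 20.4% called higher. The median difference was 0.45 and 0.40, against -0.01 and -0.03 for all genes. Zc3h12a, which encodes the ribonuclease regnase-1 that degrades cytokine transcripts, showed the widest gap between treatments. It read 7.30, 7.46 and 7.16 in vehicle ears, 7.58, 7.87 and 7.76 with anisomycin and 9.37, 9.20 and 9.24 with imiquimod. It rose by 1.96 with imiquimod (SE 0.10, adjusted p = 9.17e-07) and by 0.43 with anisomycin (SE 0.10, adjusted p = 0.00483), and the treatments differed by -1.53 (SE 0.10, adjusted p = 3.06e-05). Tnfaip3, which encodes the NF-kB brake A20, leaned to anisomycin, at 1.84 (SE 0.16) against 0.60 (SE 0.16), a difference of 1.24 (SE 0.16, adjusted p = 0.00115). Its call with imiquimod (adjusted p = 0.0126) ended without imiquimod array 1 or 3, at an adjusted p of 0.0532 and 0.0514. Nfkbiz, the inducible cofactor through which IL-17 drives many epithelial genes, rose about equally, by 1.33 with anisomycin (SE 0.10, adjusted p = 4.74e-06) and 1.36 with imiquimod (SE 0.10, adjusted p = 6.46e-06), with a difference of -0.02 (interval -0.24 to 0.19). Cebpb, a transcription factor of the same response, rose by 1.38 and 1.06.

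On the IL-12 and IL-23 side 10 genes were measured, of which 5 rose and 2 fell with anisomycin and 4 rose and none fell with imiquimod (0 lower at limma's unadjusted p under 0.05). The 7 and 4 of 10 called stand beside 45.6% and 42.7% of all genes, and with imiquimod the list is near that share. The transcription factor Stat3, which carries the IL-23 signal as well as that of other cytokines, rose by 0.86 with anisomycin (SE 0.06, adjusted p = 5.48e-06) and 0.83 with imiquimod (SE 0.06, adjusted p = 1.02e-05). Its feedback inhibitor Socs3 read 7.01, 7.29 and 6.88 in vehicle ears, 9.44, 9.71 and 9.23 with anisomycin and 8.94, 8.60 and 8.98 with imiquimod. Socs3 rose by 2.4 and 1.78, which became 1.33 and 0.96 with the mean of its probe sets (adjusted p = 3.37e-06 and 3.01e-05). Stat4, which transmits IL-12 signals, rose by 1.37 and 1.11. Jak2, the kinase bound to Il23r, rose by 1.06 with anisomycin (SE 0.13) and was at 0.22 with imiquimod (SE 0.13, adjusted p = 0.203), a difference of 0.84 (SE 0.13, adjusted p = 0.00248). The 2 genes that fell with anisomycin were Il12rb2 (-0.77, adjusted p = 0.00241) and Tyk2 (-0.42, adjusted p = 0.00831). Neither was called with imiquimod (-0.21 and -0.22). The shared receptor chain Il12rb1 was not called, at -0.08 and -0.07 (SE 0.09).

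Of 11 measured genes linked to type 17 lymphocytes 3 rose and 3 fell with anisomycin, and 1 rose and 3 fell with imiquimod, with medians of 0.03 and -0.06. The 6 and 4 of 11 called stand beside 45.6% and 42.7% of all genes. Rora, which encodes a nuclear receptor of these cells and of other skin cells, changed by -1.25 with anisomycin (SE 0.17, adjusted p = 0.000266) and was at -0.35 with imiquimod (SE 0.17, adjusted p = 0.141). Maf, a transcription factor of T cells and macrophages, changed by -0.67 (SE 0.10, adjusted p = 0.000499) and -0.43 (SE 0.10, adjusted p = 0.00807). The 3 that rose with anisomycin were Il21r (0.44, adjusted p = 0.018), Batf (0.31, adjusted p = 0.037) and Il18r1 (0.23, adjusted p = 0.0064). With imiquimod Batf alone rose (0.30, adjusted p = 0.0444).

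Genes that IL-17 is known to induce in epithelium, and that other cytokines such as IL-1 and TNF induce too, rose in 22 of 24 cases with anisomycin and 20 of 24 with imiquimod, with none lower, also at limma's unadjusted p under 0.05. Genes called higher made up 22.3% and 20.4% of all genes. The list's medians were 3.09 and 2.30. The beta-defensin gene Defb4 went from 4.05, 3.70 and 3.74 in vehicle ears to 10.63, 10.66 and 10.67 with anisomycin and 9.69, 9.69 and 9.54 with imiquimod. Anisomycin ears held more Defb4 signal than imiquimod ears (difference 1.01, SE 0.09, adjusted p = 0.000197). The part of the IL-17 ligands in the rises of the listed genes was not tested. The neutrophil chemokine gene Cxcl2 rose by 5.96 and 5.00, and the acute-phase gene Saa3 by 5.85 and 4.86. The calprotectin gene S100a8 leaned the other way, with rises of 5.50 with anisomycin and 6.62 with imiquimod (difference -1.13, SE 0.12, adjusted p = 0.000409). S100a9 is counted both in this list and among the neutrophil markers. The part of neutrophil numbers in the rises of the list was not tested. In the direct test 14 of the 24 were higher with anisomycin and 8 higher with imiquimod, where 10.8% and 9.59% of all genes were.

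**Figure D4:**
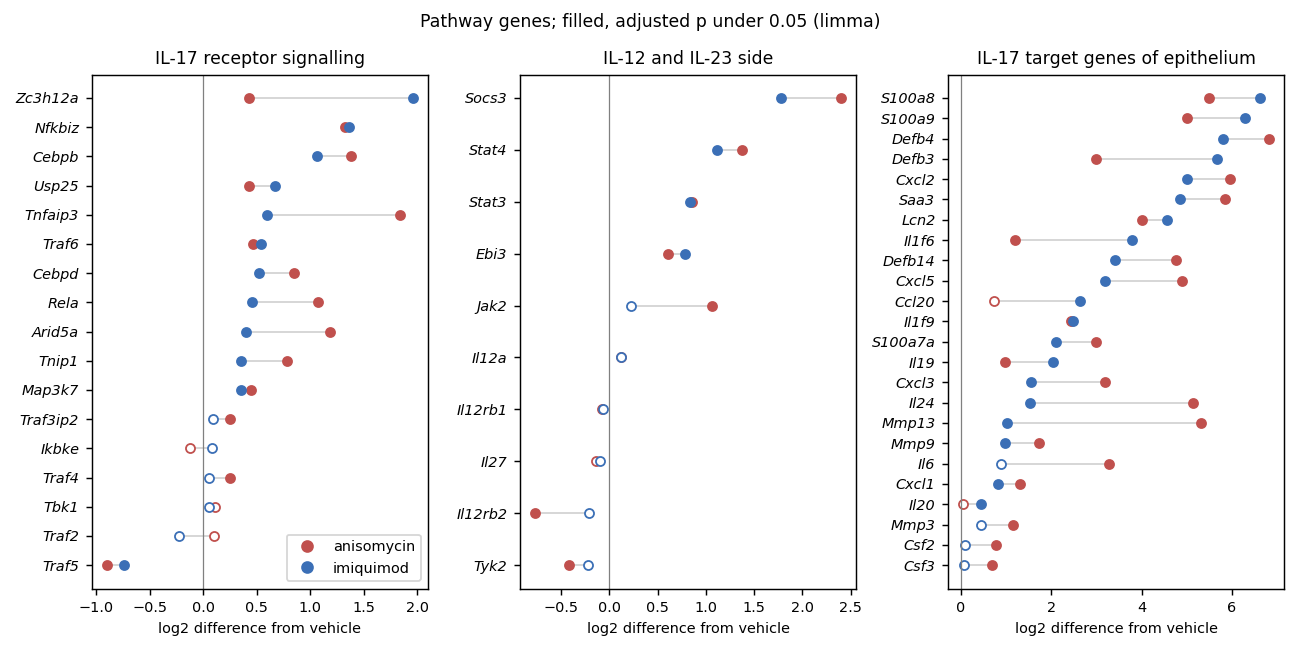
Log2 differences from vehicle (horizontal axes) of genes of IL-17 receptor signalling, of the IL-12 and IL-23 side and of IL-17 targets in epithelium, for anisomycin (red) and imiquimod (blue), 3 arrays per group. Filled points passed an adjusted p under 0.05, and a grey line joins the values of a gene, longest for Zc3h12a in the first panel. Ccl20 and Defb3 lie farther right with imiquimod, Il24 and Mmp13 with anisomycin.

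The genes whose profiles were most like those of 4 of the cytokine and receptor genes were taken as those with the smallest root mean square difference over the 9 arrays, each gene first set to 0 at its vehicle mean. For Il17c the closest of all genes considered was Il12b, at 0.108 log2 units, followed by Cox6a1 (0.123), Capn15 (0.145), Limk2 (0.154) and Acadl (0.155). For Il17f the closest were Acadl (0.0993), Aldh5a1 (0.115), Acp5 (0.151), Hip1r (0.154) and Atp5o (0.156), all of them raised by imiquimod by 0.72 to 0.87. For Il23a they were Rnf122 (0.150), the chemokine gene Ccl4 (0.187), Crabp1 (0.198), Rap2b (0.211) and Tcim (0.217), with anisomycin differences of 1.32 to 1.49 and imiquimod differences of 0.36 to 0.62. For Il23r, which varied little, the 5 closest were Ythdc2, Tmem127, Thap1, Kat5 and Fgg. They had anisomycin differences of 0.17 to 0.22 and imiquimod differences of 0.04 to 0.12. This likeness is a description of 9 arrays that share their vehicle reference.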

How the data were processed

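RNA of 9 whole ears was profiled on 1-colour Affymetrix arrays, 1 array per sample. The authors deposited a single table of log2 values computed with RMA (background correction, quantile normalization and probe set summaries), per the submitters' processing notes. RMA's version and the genome build are not given in the sources used here. A log2 scale was judged from the range of 2.39 to 13.97. Array medians were 6.01 to 6.10. Of 35556 rows, 21789 carried 1 gene symbol in the platform annotation, and the probe set with the highest mean was kept per gene, leaving 19938 genes. The 10 members each had 1 probe set, and all 10 symbols matched RefSeq.

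Genes were fitted with limma 3.58.1 in R 4.3.3 over all 9 arrays with a mean per group, 6 residual and 3.16 prior degrees of freedom, two-sided, with Benjamini-Hochberg adjustment over all genes and calls at an adjusted p under 0.05. The fit was tested on simulated data. An exact rank test of 3 against 3 cannot go below p = 0.1, and the number of arrays limits precision. Separate animals are implied by n = 3 in the labels but not identified, and otherwise p-values measure only the spread between samples. Members and gene lists were chosen with earlier results of these data known. Named genes were all members, the called genes of largest change in each pathway list (up to 3 per treatment), every gene of the 5-gene list, Ccl20, Il12a, Il12rb1 and the 5 nearest profiles of 4 members, leaving out predicted loci, clone names, receptor segments and small RNAs. Not every gene the rule allows is described. The cell type markers, Il12rb2, Tyk2, Il21r, Batf and Il18r1, and Defb3, Il24 and Mmp13 in a caption, fall outside it. They were named after their values were seen. Promoter sequences are from RefSeq, GRCm38.p6. Alternatives covered the variance prior, a filter on dim genes, 3 other scalings, averaged probe sets, a test of all rows, weighted arrays, a block on replicate number, each array left out, and only the 2 groups compared.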

Additional observations from a re-analysis of the deposited data

How the results depend on the processing

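The number of the 10 genes called was 2 or 3 for anisomycin, 6 or 7 for imiquimod and 5 to 7 between the treatments over the 19 alternatives, leaving out each array included. The filter on the dimmest 30% of genes left Il17a, Il12b, Il23r and Ccr6 untested. Over all genes, 4059 were called between the treatments. Array weights gave 8557, and leaving out 1 array gave 2523 to 4766, with 2523 to 2589 without anisomycin array 1 or 2 or any imiquimod array. The cause was not tested. Scaling moved the balance of calls over all genes. Higher calls made up 49.0% for anisomycin and 47.7% for imiquimod, which became 61.5% and 58.1% after centring on array medians and 37.1% and 36.4% after centring on 1000 stable genes. The members named as rising kept their direction and their call under each scaling.

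Signs turned only in differences near 0 that were not called. With arrays centred on stable genes these were, for anisomycin, Il17a (-0.03), Il17f (-0.07), Il17re (-0.06) and Ccr6 (-0.08), and for imiquimod Il17a (-0.04), Il23r (-0.01) and Ccr6 (-0.06). With medians Il17c became 0.04 for anisomycin and Ccr6 0.01 between treatments, repeated quantile normalization put Il17c at 0.02, and array weights put Il17f at -0.04 and Il12rb1 at 0.00 for anisomycin. Leaving out 1 array, the anisomycin differences ranged from -0.10 to 0.04 for Il17c, -0.02 to 0.04 for Il17f, -0.03 to 0.09 for Il17re, -0.07 to 0.07 for Ccr6 and -0.15 to 0.02 for Il12rb1. The imiquimod differences ranged from -0.01 to 0.06 for Il17a, -0.06 to 0.08 for Ccr6 and -0.14 to 0.04 for Il12rb1, and Ccr6 between treatments from -0.02 to 0.01.

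Samples of the same replicate number did not deviate together (r of -0.20 to 0.20 over 9 pairs, against -0.24 to 0.25 for other numbers, and not every array correlated best with its own number). The replicate block called 2, 7 and 7 members and 8924, 8280 and 3734 genes, and Ccl20 with anisomycin passed under it (adjusted p = 0.036). No detection values were used, so how far the dim probe sets Il23r, Ccr6, Il12b and Il17a lie above background is not known here.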
